A study of Homo sapiens with 6 samples.

Results

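The genes described here encode 10 transcription factors of the epithelial-mesenchymal transition (EMT): the Snail family members SNAI1, SNAI2 and SNAI3, the zinc finger homeobox factors ZEB1 and ZEB2, the basic helix-loop-helix factors TWIST1, TWIST2 and TCF4, the homeobox factor PRRX1 and the forkhead factor FOXC2. They were taken by gene symbol and not by a cut on their values, but with earlier results of these data known. All 10 had a row among the 20811 genes measured. The cells were HuCCT1, an established human intrahepatic cholangiocarcinoma line. HuCCT1/CD90+ cells carried a lentivirus with human THY1, the gene of the surface protein CD90, together with GFP under a CMV promoter, and HuCCT1/CD90- cells carried the matching blank lentivirus with GFP and a puromycin resistance gene. Both were transduced at a multiplicity of infection of 40, cultured in RPMI with 10% serum and read in 3 libraries each. Whether a line was grown from a clone or a pool, and whether its libraries came from separate cultures, is not stated in the sources used here, so p-values measure only the spread between these libraries.

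EMT is the programme by which epithelial cells lose junctions and polarity and gain motility, and it is studied in cholangiocarcinoma as a route to invasion. The Snail and ZEB proteins bind E-box sequences in the promoters of epithelial genes, CDH1 among them, and recruit co-repressors there, while the Twist proteins and TCF4 act as helix-loop-helix dimers that the ID proteins can block. The grainyhead-like and OVOL factors are known to oppose this group and to hold cells in the epithelial state, and several of the EMT factors are unstable proteins whose degradation depends on phosphorylation, so a transcript level says little of the protein.

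Expression was read as RPM, reads scaled to a common library total, from 1 amplicon per gene. Depth was 9345680 to 10551516 gene reads in HuCCT1/CD90- and 8587634 to 9327650 in HuCCT1/CD90+, and 3 reads, the floor used here, stood for 0.284 to 0.349 RPM. Floors cover counting error only, as the reads carry no molecular identifiers. Amplicons differ in efficiency and no length scale applies, so levels are compared between libraries for 1 gene and not between genes. THY1 itself had 0, 1 and 0 reads in HuCCT1/CD90- and 435, 445 and 680 reads in HuCCT1/CD90+, as labelled. The biliary keratins KRT7 and KRT19 lay between 3042 and 4291 RPM in all 6 libraries. Of 8 biliary markers 2 were higher and 1 was lower in HuCCT1/CD90+, beside 7.59% and 7.49% of all genes by the rule given below. Of the markers of other cell types, ALB, TTR, PTPRC and KDR had at most 1 read in any library. Others were read in HuCCT1/CD90- libraries, with 18 to 40 reads of APOA1, 99 to 156 of LYZ and 141 to 203 of CDH5. CD68 had 490 to 522 reads there and 780 to 925 in HuCCT1/CD90+.

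Of the 10 EMT transcription factors, 3 were lower in HuCCT1/CD90+ cells, ZEB1, SNAI1 and ZEB2, none was higher, and 7 did not pass the test. A gene was called where limma on log2(RPM + 1) gave a p of 0.05 or less after Benjamini-Hochberg adjustment over the whole table, with a fold change of at least 1.5 on that scale. By that rule 7.49% of all genes were lower, 7.59% were higher and 15.1% were called in either direction. With an unadjusted p in its place these shares were 9.98%, 10.1% and 20.1%, and the members called were still 3. Of the 7 others, SNAI2 was expressed in both lines over overlapping ranges, SNAI3 stayed at the floor in both lines, and TWIST1, TWIST2, PRRX1, FOXC2 and TCF4 had 0 reads in every library. The values of the 2 lines did not overlap for 4 members, the 3 called and SNAI3, against 35.0% of all genes. The median log2 fold change was 0 over the 10 members and 0 over all genes.

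**Figure D1:**
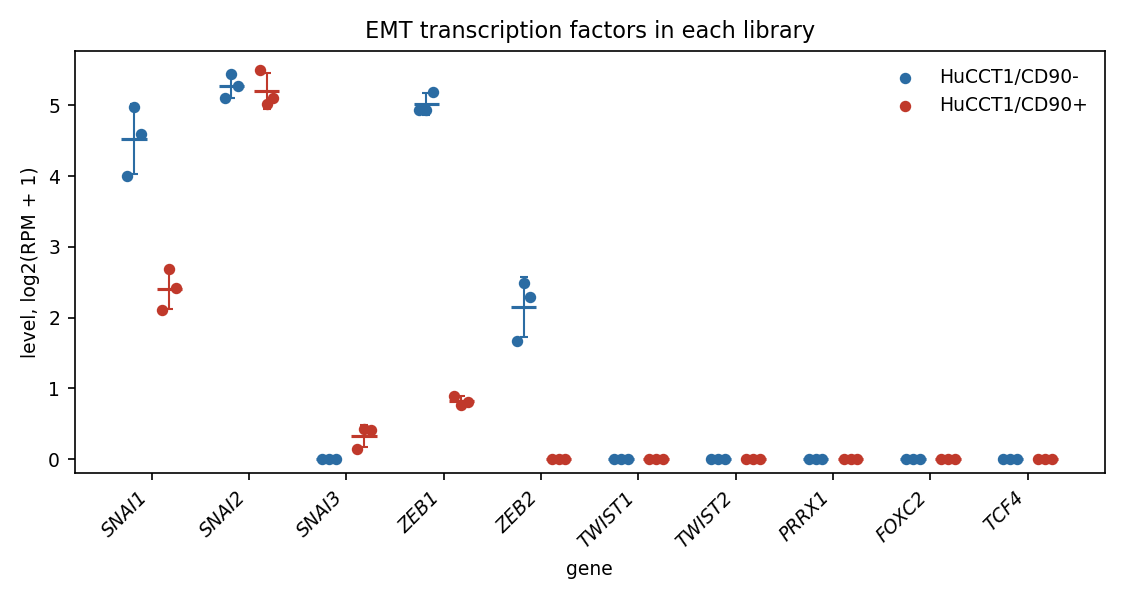
Level of each of the 10 EMT transcription factors in each library on the log2(RPM + 1) scale. Points are libraries (3 per line), horizontal lines the mean and vertical bars the SD. For ZEB1, SNAI1 and ZEB2 all HuCCT1/CD90+ points lie below all HuCCT1/CD90- points, the SNAI2 points overlap, and 5 genes lie at 0 throughout.

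ZEB1 encodes a zinc finger repressor that binds paired E-boxes of epithelial promoters. GENCODE 29 places it on the plus strand of chromosome 10 (GRCh38), bases 31318495 to 31529814. It had 29.6, 29.5 and 35.6 RPM in HuCCT1/CD90- replicates 1, 2 and 3 and 0.858, 0.699 and 0.760 RPM in HuCCT1/CD90+ replicates 1, 2 and 3. The lowest HuCCT1/CD90- library thus held 276 reads of the gene and the highest HuCCT1/CD90+ library 8 reads. The mean fell from 31.6 ± 3.49 to 0.772 ± 0.080 RPM (SD, n = 3 per line), a 40.9-fold lower level. The log2 fold change was -4.20 (standard error 0.09, limma adjusted p = 0.00026), and omission of single libraries gave -4.24 to -4.11. The 50 nearest genes of chromosome 10 with a mean of at least 10 RPM had a median log2 fold change of -0.25, so the neighbourhood of ZEB1 was displaced in the same direction by far less.

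The 250 bases before the most upstream RefSeq transcript start of ZEB1 are shown because they hold the E-box letters that the Snail and ZEB proteins are known to read. The window is chr10:31318167-31318416 of GRCh38.p14 on the plus strand, it overlaps an exon of the antisense gene ZEB1-AS1, and the capitals mark the letters CAGGTG, which begin 57 bases before the start.
ZEB1 promoter: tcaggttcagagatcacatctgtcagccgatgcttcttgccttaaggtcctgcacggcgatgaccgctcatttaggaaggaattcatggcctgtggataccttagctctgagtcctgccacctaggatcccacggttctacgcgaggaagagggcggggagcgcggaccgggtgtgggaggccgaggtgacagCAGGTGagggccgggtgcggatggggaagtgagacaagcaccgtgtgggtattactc
The letters CAGGTG, searched on both strands so that CACCTG also counts, occurred in 17.5% of all 27305 promoter windows of the RefSeq table. Of the members, 5 were in that table, and ZEB1 was the one with a match, while ZEB2, TWIST2, PRRX1 and TCF4 had none. SNAI1, SNAI2, SNAI3, TWIST1 and FOXC2 were not matched. A match describes the letters of the window and not a bound site.

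ZEB2, the paralogue of ZEB1, lies on chromosome 2 from 144364364 to 144524583 on the minus strand. It had 2.18, 4.6 and 3.88 RPM in HuCCT1/CD90- replicates 1, 2 and 3, which stood for 23, 43 and 40 reads. It had 0 reads in all 3 HuCCT1/CD90+ libraries. The mean of 3.55 ± 1.24 RPM (SD, n = 3) in HuCCT1/CD90- was at least 10.2-fold above the floor of 3 reads per library in HuCCT1/CD90+. The log2 fold change was -2.15 on the log2(RPM + 1) scale (standard error 0.23, limma adjusted p = 0.0074). This fitted value depends on the offset, as one line was at 0, and lay between -5.13 with an offset of 0.1 RPM and -0.76 with 5 RPM. ZEB2 kept its call without each library, and its 50 neighbours had a median of -0.05.

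SNAI1, the founding Snail repressor of CDH1, lies on chromosome 20 from 49982999 to 49988886 on the plus strand. It had 15.1, 30.5 and 23.1 RPM in HuCCT1/CD90- replicates 1, 2 and 3 and 3.32, 5.47 and 4.34 RPM in the same replicates of HuCCT1/CD90+. Every HuCCT1/CD90+ value lay below the lowest HuCCT1/CD90- value, and both lines spread widely. The mean fell from 22.9 ± 7.72 to 4.38 ± 1.08 RPM (SD, n = 3 per line), a 5.23-fold lower level. The log2 fold change was -2.12 (standard error 0.31, limma adjusted p = 0.016). The call was lost without HuCCT1/CD90- replicate 3 (limma adjusted p = 0.064), without HuCCT1/CD90+ replicate 1 (0.058) and without HuCCT1/CD90+ replicate 3 (0.067), with log2 fold changes of -2.08, -1.97 and -2.12. Over all alternatives its adjusted p ran from 1.2e-14 (DESeq2) to 0.067. The 50 neighbours on chromosome 20 had a median of 0.23, opposite in sign to SNAI1.

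HuCCT1/CD90- replicate 1 was the lowest of its line for both SNAI1 and ZEB2, but not for ZEB1. Without it the log2 fold changes were -2.38 for SNAI1, -2.39 for ZEB2 and -4.24 for ZEB1, and all 3 remained called.

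SNAI2, also known as Slug, lies on chromosome 8 from 48917604 to 48921740 on the minus strand and is the Snail member often kept in cells that still have epithelial traits. It had 33.3, 42.4 and 37.7 RPM in HuCCT1/CD90- replicates 1, 2 and 3 and 44.2, 31.3 and 33.5 RPM in HuCCT1/CD90+ replicates 1, 2 and 3. The highest and the lowest value of the gene were both from HuCCT1/CD90+, so that the range of one line enclosed the other. The means were 37.8 ± 4.55 and 36.3 ± 6.87 RPM (SD, n = 3 per line), with a log2 fold change of -0.06 (95% interval -0.51 to 0.39, limma adjusted p = 0.99). The interval excludes a fall of the size seen for SNAI1 but not a moderate change in either direction.

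The balance of SNAI1 to SNAI2 was examined within each library. A plain ratio would not depend on library scaling, but 1 RPM was added to each gene here, so some dependence remains. The log2 ratio of SNAI1 to SNAI2, each as RPM + 1, was -1.09, -0.46 and -0.69 in HuCCT1/CD90- and -3.39, -2.32 and -2.69 in HuCCT1/CD90+. The lines did not overlap, and the mean log2 ratio differed by -2.05 in HuCCT1/CD90+ (an exact two-sided permutation test over libraries gave p = 0.1, the smallest that 3 against 3 libraries allow). The ratio carries amplicon efficiencies, so its sign does not rank the levels of both genes.

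SNAI3, the least studied Snail member, lies on chromosome 16. It had 0 reads in all 3 HuCCT1/CD90- libraries and 1, 3 and 3 reads in HuCCT1/CD90+ replicates 1, 2 and 3. Both lines were at or under the floor, so no fold is given. Its limma adjusted p was 0.071 with an offset of 1 RPM and 0.033 with an offset of 0.1 RPM, which called it higher on 7 reads in all. TWIST1 on chromosome 7, TWIST2 on chromosome 2, PRRX1 on chromosome 1, FOXC2 on chromosome 16 and TCF4 on chromosome 18 are activators or inducers of mesenchymal genes in other cells. With 0 reads in every library, a level of up to 0.284 to 0.349 RPM per library remained possible for each, and a difference between the lines was not detectable at this depth. The 3805 genes at 0 in all libraries include those that the cells do not use and those whose amplicon failed, which cannot be told apart here.

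**Figure D2:**
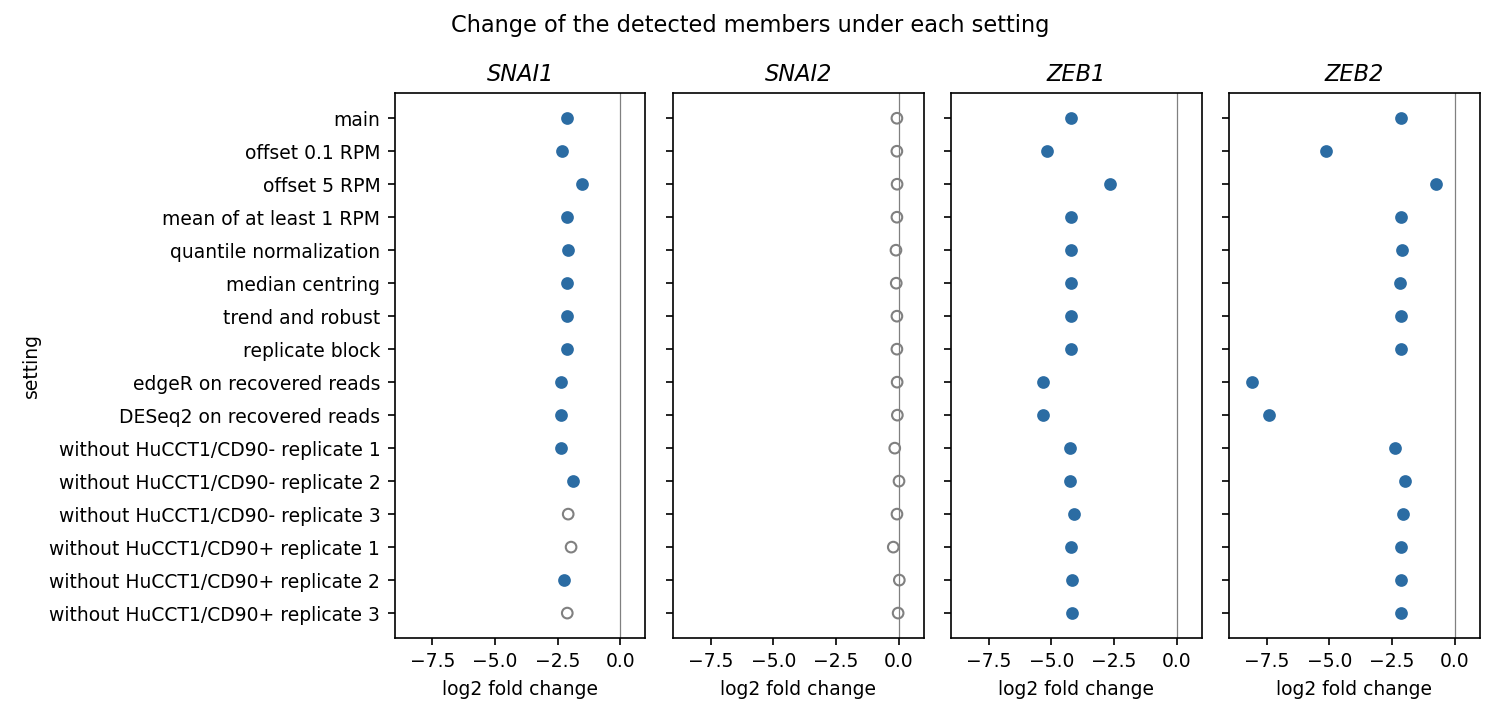
Log2 fold change of the 4 members above the floor (HuCCT1/CD90+ over HuCCT1/CD90-) under each setting. Filled points passed an adjusted p of 0.05 and a fold change of 1.5, open points did not; ZEB1 and ZEB2 passed in all 16 settings shown, SNAI1 in 13 and SNAI2 in none, and the position of ZEB2 depends on the offset because one line had no reads.

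The partners of the helix-loop-helix members were measured as well. Of 8 dimer partners and ID inhibitors, 2 were lower, none was higher, and the median log2 fold change was -0.34 against 0 over all genes. The share called was 25.0% against 15.1% of all genes, and 60.0% (3 of 5) against 33.3% among genes with a mean of 1 RPM or more. ID1, which encodes an inhibitor that sequesters E proteins, had 387, 603 and 544 RPM in HuCCT1/CD90- and 86.4, 107 and 124 RPM in HuCCT1/CD90+ replicates 1, 2 and 3. The lines did not overlap and the log2 fold change of ID1 was -2.25 (standard error 0.23, limma adjusted p = 0.0064). TCF3, the gene of the E proteins E12 and E47, fell from 15.4 ± 0.309 to 9.57 ± 1.73 RPM (log2 fold change -0.64, limma adjusted p = 0.038). TCF12, the other E protein gene listed, stood at 40.6 ± 4.89 and 31.9 ± 1.93 RPM and did not pass the test (limma adjusted p = 0.11). The call of TCF3 was lost in the blocked fit, which pairs libraries by replicate number (limma adjusted p = 0.11), and without any one library other than HuCCT1/CD90+ replicate 1, and the count was then 1. With edgeR, DESeq2, median centring, genes of at least 1 RPM or an unadjusted p, 3 genes of this list were lower and none was higher.

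Of 29 co-repressors and chromatin partners of the Snail and ZEB proteins, 4 were lower, 1 was higher and 24 were not called, with a median of -0.06. The share called, 17.2%, was near the 15.1% of all genes, and among genes with a mean of 1 RPM or more, which all 29 reach, it was 17.2% against 33.3%, so the calls below describe single genes and not the group. KDM1A encodes LSD1, the histone demethylase that the Snail proteins recruit by a domain resembling the histone tail. It had 74.7, 62.0 and 90.7 RPM in HuCCT1/CD90- and 19.8, 12.8 and 16.9 RPM in HuCCT1/CD90+ replicates 1, 2 and 3, a 4.59-fold lower mean (log2 fold change -2.13, standard error 0.22, limma adjusted p = 0.0066). LOXL2, a lysyl oxidase reported to stabilise SNAI1 protein, fell from 2.54 ± 0.492 to 0.602 ± 0.420 RPM. SETDB1, a histone H3 lysine methyltransferase, fell from 31.3 ± 5.36 to 18.9 ± 1.89 RPM, and its 50 neighbours on chromosome 1 had a median of -0.52 beside its own -0.69. With the replicate block SETDB1 lost its call (limma adjusted p = 0.16), and 3 lower genes and 1 higher gene of the list were left. LIMD1, a LIM protein of the same family as AJUBA that binds the repressor domain of the Snail proteins, rose from 18.02 ± 1.28 to 30.2 ± 3.84 RPM (log2 fold change 0.71, limma adjusted p = 0.019). EHMT2, a methyltransferase of the same group named after its values were seen, was the remaining lower gene (log2 fold change -0.65, limma adjusted p = 0.030). KDM1A alone kept its call whichever library was omitted. The count was 1 without any HuCCT1/CD90- library or HuCCT1/CD90+ replicate 3, and 3 without HuCCT1/CD90+ replicate 1 or 2. CTBP1 and CTBP2, the co-repressors through which the ZEB proteins act, had log2 fold changes of -0.30 and 0.15 and did not pass the test.

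Genes that set the stability of the Snail, ZEB and Twist proteins were also read. Of 16 of these measured, 4 were higher and 1 was lower, with a median of 0.02. Of all 16, 31.2% were called against 15.1% of all genes. Among genes with a mean of 1 RPM or more 35.7% of them were called against 33.3% of all genes, and only that second share was near the background. GSK3B, the kinase whose phosphorylation of SNAI1 marks it for degradation, had 28.7, 39.9 and 39.5 RPM in HuCCT1/CD90- and 70.8, 76.9 and 76.2 RPM in HuCCT1/CD90+ replicates 1, 2 and 3. The lines did not overlap and the log2 fold change was 1.04 (standard error 0.15, limma adjusted p = 0.015), beside a median of 0.60 for its 50 neighbours on chromosome 3. PAK1, a kinase reported to hold SNAI1 in the nucleus, rose from 12.2 ± 1.06 to 22.3 ± 0.817 RPM (log2 fold change 0.82, limma adjusted p = 0.0039). FBXW7, a ubiquitin ligase subunit, rose from 7.46 ± 1.38 to 15.6 ± 3.78 RPM (limma adjusted p = 0.049) and PRKD1, a kinase that phosphorylates SNAI1, fell from 1.17 ± 0.447 to 0.147 ± 0.165 RPM (limma adjusted p = 0.049). FBXO45, another ubiquitin ligase subunit, was the remaining higher gene (log2 fold change 0.59) and was named after its values were seen. GSK3B lost its call without any one HuCCT1/CD90+ library (limma adjusted p from 0.052 to 0.064), and PAK1 alone kept its call whichever library was omitted. The count of 5 was 1 without any HuCCT1/CD90+ library and 2 without HuCCT1/CD90- replicate 2 or 3. With the replicate block it was 2, GSK3B and PAK1. BTRC, the ligase subunit that reads the phosphorylation by GSK3B, had a log2 fold change of -0.32 and did not pass the test.

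Other transcription factors tied to EMT were measured too. Of 17 measured, 2 were lower and none was higher, with a median of -0.05. The share called was 11.8% against 15.1% of all genes, and 42.9% against 33.3% among genes with a mean of 1 RPM or more, on either side of the background. The split depended on the processing: with genes of at least 1 RPM, with edgeR and with DESeq2 the list had 3 lower and 3 higher, with an unadjusted p 3 lower and 2 higher, and under quantile normalization or median centring 3 lower and 1 higher. LEF1, a partner of beta-catenin in WNT signalling, had 36, 50 and 34 reads in HuCCT1/CD90- and 0 reads in every HuCCT1/CD90+ library, at least 11.5-fold lower (limma adjusted p = 0.0027). RUNX2, best known from bone, stood at 22.1 ± 3.20 RPM in HuCCT1/CD90- and fell to 5.25 ± 0.569 RPM (log2 fold change -1.88, standard error 0.13, limma adjusted p = 0.0023). HMGA2, a chromatin protein that induces SNAI1 in other cells and was named after its values were seen, had 13.2, 33.7 and 30.3 RPM in HuCCT1/CD90- and 52.0, 49.1 and 62.7 RPM in HuCCT1/CD90+. Its values did not overlap, but it did not pass the test in limma (adjusted p = 0.13) and did in edgeR (adjusted p = 0.00098) and DESeq2 (adjusted p = 8.9e-05).

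Factors known to oppose the EMT group were read next. Of 14 opposing epithelial transcription factors measured, 9 were higher and 1 was lower, with a median log2 fold change of 1.87 against 0 over all genes. As a share, 71.4% were called against 15.1% of all genes, and 76.9% against 33.3% among genes with a mean of 1 RPM or more. The list was made with earlier results of these data known, so its share is only a description. OVOL1, a zinc finger repressor of ZEB1 in other epithelia, had 0.190, 0.214 and 0.776 RPM in HuCCT1/CD90- and 23.0, 24.9 and 22.2 RPM in HuCCT1/CD90+ replicates 1, 2 and 3 (log2 fold change 4.15, standard error 0.18, limma adjusted p = 0.00085). No fold of the means is given for OVOL1, since its HuCCT1/CD90- mean rested on 8 reads in replicate 3 beside 2 reads in each of the others. GRHL2, the grainyhead-like factor that holds CDH1 active, had 11.3, 8.67 and 9.89 RPM and then 161, 192 and 196 RPM, an 18.4-fold higher mean (log2 fold change 4.07, standard error 0.13, limma adjusted p = 0.00043). The lines lay far apart for both genes in each library. OVOL2 rose from 2.56 ± 0.564 to 36.7 ± 3.96 RPM and GRHL1 from 1.14 ± 0.423 to 16.3 ± 3.90 RPM. TP63, named after its values were seen as the one lower gene, encodes a factor of basal epithelial cells and fell from 5.96 ± 1.75 to 0.404 ± 0.048 RPM (limma adjusted p = 0.0053), while its 50 neighbours on chromosome 3 had a median of 0.70. Of the 10 calls, 7 remained whichever library was omitted and 8 with the replicate block.

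**Figure D3:**
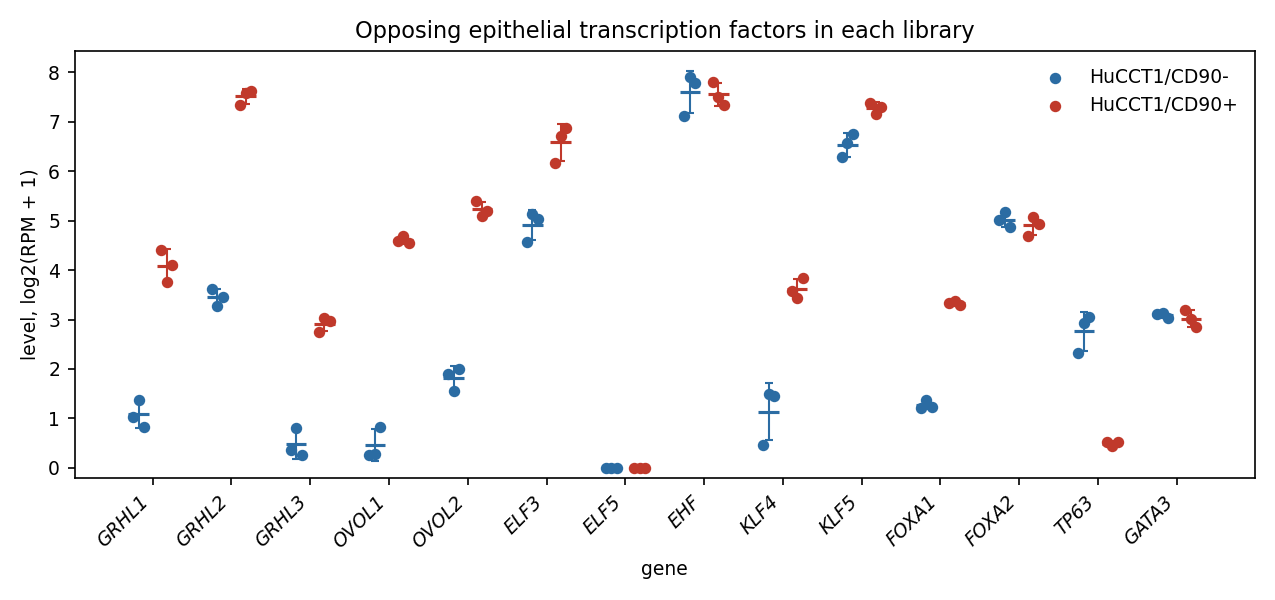
Level of each of the 14 opposing epithelial transcription factors in each library on the log2(RPM + 1) scale. Points are libraries (3 per line), horizontal lines the mean and vertical bars the SD; the HuCCT1/CD90+ points lie above the HuCCT1/CD90- points for the 9 genes called higher and below them for TP63.

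Genes known as targets of repression by the Snail and ZEB proteins were listed from general knowledge, and the list was made with earlier results of these data known. Of the 21 measured, 18 were higher and 1 was lower, with a median log2 fold change of 2.60 against 0 over all genes. That made 90.5% called against 15.1% of all genes, and 100% against 33.3% among genes with a mean of 1 RPM or more. RAB25, a trafficking GTPase of epithelial cells, rose from 1.19 ± 0.131 to 111 ± 9.80 RPM, a 93.2-fold higher mean (log2 fold change 5.67, limma adjusted p = 0.00016). ESRP1, an epithelial splicing factor, had 2, 0 and 2 reads in HuCCT1/CD90- and 605, 475 and 503 reads in HuCCT1/CD90+. The tight junction gene CLDN4 rose from 5.41 ± 2.73 to 156 ± 13.8 RPM and the polarity gene CRB3 from 2.39 ± 0.368 to 80.8 ± 5.97 RPM. CLDN4 lies in a part of chromosome 7 where its 50 neighbours had a median of 0.65. CDH1, the gene of E-cadherin, had 13.6, 13.4 and 16.4 RPM in HuCCT1/CD90- and 218, 211 and 254 RPM in HuCCT1/CD90+ replicates 1, 2 and 3 (log2 fold change 3.89, standard error 0.11, limma adjusted p = 0.00043). The one lower gene, MUC1, a membrane mucin, fell from 59.7 ± 6.38 to 29.9 ± 5.67 RPM (limma adjusted p = 0.027), and lost its call without HuCCT1/CD90- replicate 1, 2 or 3 and without HuCCT1/CD90+ replicate 1 or 3 (adjusted p from 0.062 to 0.092). CLDN1 and JUP did not pass the test (limma adjusted p = 0.057 and 0.051).

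The same E-box letters were counted before the starts of these genes, since they are the letters through which the Snail and ZEB proteins are known to act on epithelial promoters. Of the 12 measured genes with a RefSeq window, 6 held at least 1 match (50%, against 17.5% of all promoters) and 4 held at least 2 (33.3%, against 2.57%). They were CRB3 with 5 matches, PATJ, DSP and MUC1 with 2 each, and OCLN and RAB25 with 1 each. These are counts over few genes that overlap in function, and no test was made of them. The genes were listed as known Snail and ZEB targets. An excess of matches may follow from that choice and is not a result of these expression data. MUC1 was lower in HuCCT1/CD90+, so genes with matches moved in both directions. In 10 windows of mesenchymal genes there was 1 with a match, and in 10 windows of opposing factors there were 3 (30%). Dimer partners, co-repressors, stability regulators and other EMT-linked factors lay at 0% to 15.4%. CDH1, EPCAM and ESRP1 were not in the promoter table. The RAB25 window, which overlaps no annotated exon, is shown whole as the largest rise with a match: it is chr1:156060910-156061159 of GRCh38.p14 on the plus strand, and the capitals mark the match on the opposite strand, 41 bases before the start.
RAB25 promoter: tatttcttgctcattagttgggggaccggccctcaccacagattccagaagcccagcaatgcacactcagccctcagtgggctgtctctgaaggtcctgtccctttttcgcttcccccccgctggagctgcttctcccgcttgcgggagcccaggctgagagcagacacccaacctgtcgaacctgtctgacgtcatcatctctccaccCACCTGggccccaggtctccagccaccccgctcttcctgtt
For CRB3, the gene with the most matches, 20-base stretches are given in order along the plus strand, with CAGGTG or its reverse complement in capitals. The first is chr19:6464036-6464055 and the last chr19:6464204-6464223.
CRB3 match 1: cgcaatgCAGGTGtaaggtc
CRB3 match 2: cccctcaCACCTGcgcgctt
CRB3 match 3: cccgttaCAGGTGcgcccac
CRB3 match 4: cgaggctCAGGTGcacaagc
CRB3 match 5: gctctccCAGGTGagtgact
The matches of PATJ, a polarity scaffold listed in the table under its older symbol INADL (chr1:61742302-61742321 and chr1:61742443-61742462), and of OCLN, the gene of occludin (chr5:69492507-69492526), are shown for comparison with those of CRB3.
PATJ match 1: aggaattCACCTGcacgtaa
PATJ match 2: ggcctgcCAGGTGaggcgcg
OCLN match: cgagtttCAGGTGaattggt
The bases beside the 6 letters differed between these stretches. PATJ rose from 4.70 ± 0.888 to 77.2 ± 9.42 RPM and OCLN from 12.2 ± 1.13 to 149 ± 7.23 RPM (SD, n = 3 per line).

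**Figure D4:**
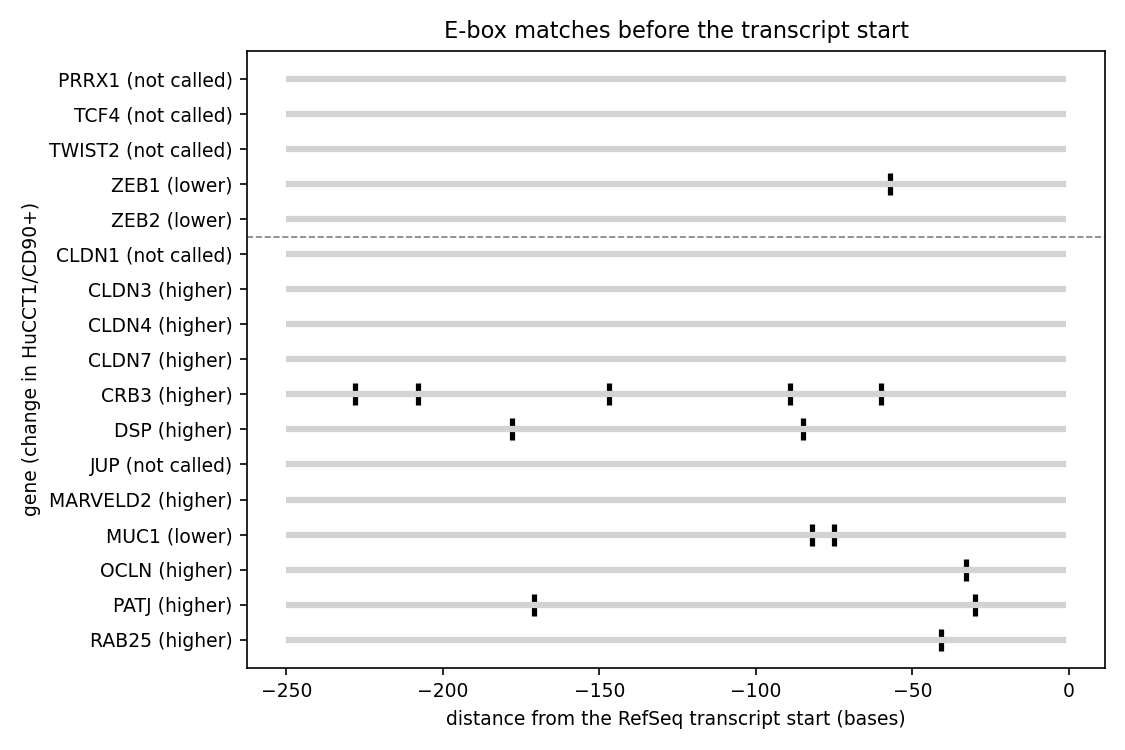
Position of each CAGGTG or CACCTG match (black ticks) in the 250 bases before the RefSeq transcript start (grey bars) of 5 EMT transcription factors, above the dashed line, and 12 epithelial genes, below it. CRB3 holds 5 ticks and ZEB1 1, and 6 of the 12 epithelial windows hold none.

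Mesenchymal genes that EMT transcription factors are known to raise were lower for the most part. Of 20 measured, 13 were lower and 1 was higher, with a median log2 fold change of -1.25. Thus 70.0% were called, against 15.1% of all genes, and 80.0% against 33.3% among genes with a mean of 1 RPM or more. This list, too, was made with earlier results of these data known. SPARC, a matrix protein, had 548, 600 and 590 RPM in HuCCT1/CD90- and 0 reads in every HuCCT1/CD90+ library. TNC, the gene of tenascin C, fell from 437 ± 27.6 to 1.69 ± 0.707 RPM and POSTN, the gene of periostin, from 24.2 ± 4.71 to 1.25 ± 0.171 RPM. CDH11, a mesenchymal cadherin, had 103, 186 and 155 reads in HuCCT1/CD90- and 1, 0 and 0 in HuCCT1/CD90+. VIM, the gene of vimentin, was measured at 326 ± 74.7 RPM in HuCCT1/CD90- and fell to 91.4 ± 8.80 RPM (log2 fold change -1.80, standard error 0.21, limma adjusted p = 0.0086), and with the replicate block its adjusted p was 0.059. Of the 14 calls, 9 remained whichever library was omitted. With the replicate block 9 were lower and 1 was higher. The count of 14 was 9 without HuCCT1/CD90- replicate 3, HuCCT1/CD90+ replicate 2 or HuCCT1/CD90+ replicate 3.

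Markers of other cell types differed between the lines in both directions. Beside the counts below, 7.49% of all genes were lower and 7.59% were higher. Each list holds few genes, and none was tested as a set. Of 7 fibroblast markers 5 were lower and none was higher, with sums of 41.8 to 65.3 RPM in the control line against 20.4 to 24.7 RPM, while COL1A1 was between 11.2 and 15.5 RPM in all libraries and PDGFRA had at most 4 reads. With HuCCT1/CD90- given first, the sums of 4 endothelial markers were 14.5 to 23.2 and 0.643 to 1.63 RPM, with CDH5 as the 1 lower gene. The sums of 5 hepatocyte markers were 3.59 to 5.89 and 0.217 to 0.751 RPM, with 2 lower. The sums of 5 blood cell markers were 61.3 to 66.7 and 85.4 to 104 RPM, with 2 higher and 1 lower. CD68 made up most of these sums, at 46.4 to 55.4 and 83.6 to 100 RPM. LYZ, the lower gene, fell from a mean of 12.0 to 1.52 RPM. With the replicate block, 2 fibroblast markers, LUM and PDGFRB, were still lower, COL1A2, COL3A1 and DCN were not (limma adjusted p from 0.086 to 0.10), 1 hepatocyte marker in place of 2 and no blood cell marker in place of 1 was lower. The part of these shifts in the levels of the EMT transcription factors was not tested, and fewer cells with a transcript and less transcript per cell cannot be told apart in bulk RNA.

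**Figure D5:**
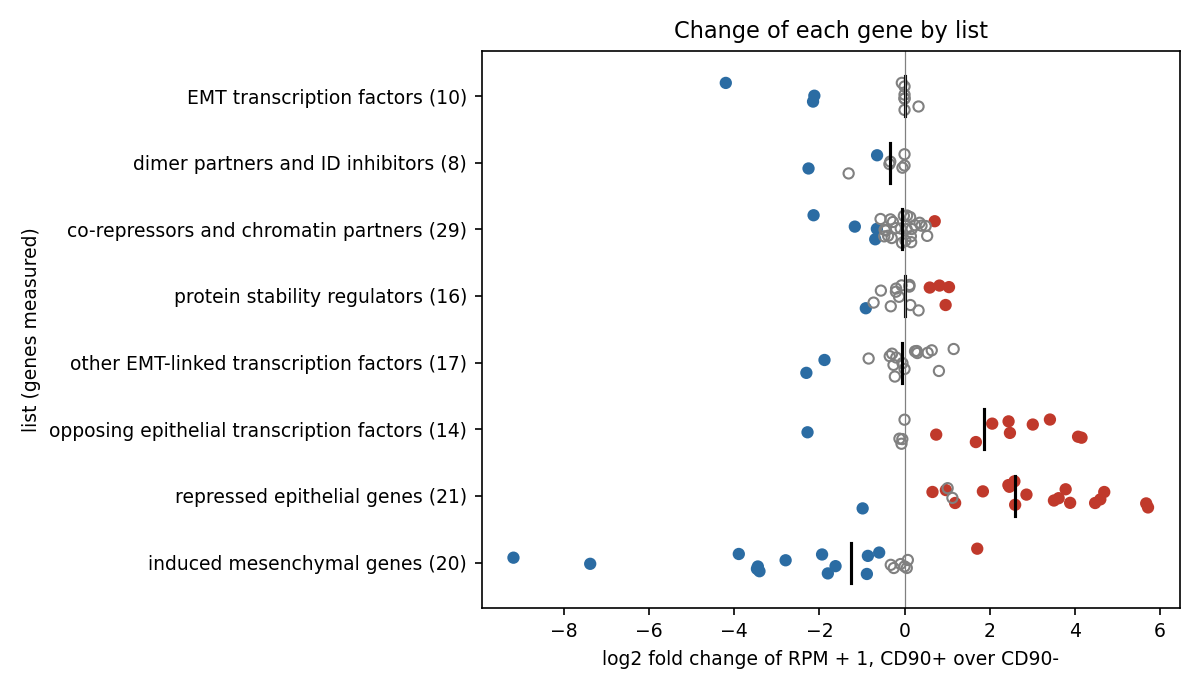
Log2 fold change of RPM + 1 (HuCCT1/CD90+ over HuCCT1/CD90-) of each gene, by list, with the number measured in brackets. Filled blue points were called lower, filled red points higher and open points were not called; vertical lines are medians, which run from -1.25 for mesenchymal genes to 2.60 for repressed epithelial genes.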

How the data were processed

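The deposited table held RPM values. The authors sequenced Ion AmpliSeq Transcriptome libraries (Ion GeneStudio S5 Prime) and used the ampliSeqRNA plugin to count reads by amplicon. The submitters' processing notes also name hg19 and the Transcriptome Analysis Console. No filter on low values was found, and the amplicon positions were not given in the sources used here. All values (100%) came back as whole reads, within a tolerance of 0.05 read. None of the libraries was a copy of another.

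Differences were fitted in R 4.3.3 with limma 3.58.1 (lmFit, eBayes) on log2(RPM + 1) over all 20811 genes, with Benjamini-Hochberg adjustment. This scale understates the change of low genes. edgeR 4.0.16 and DESeq2 1.42.0 on the recovered reads, other offsets, filters and scalings, the replicate block and each library left out in turn were alternatives. The script was tested on simulated data. Deviations of same-numbered libraries from their line means correlated with r = 0.21, 0.32 and 0.18, and of other pairs with -0.29 to 0.07. Same-numbered libraries were thus more alike, but with 3 libraries per line this check cannot settle whether the numbers pair them, and no label says so. The fit behind the printed p-values and counts has no block, and the blocked fit is an alternative.

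The members and lists were chosen with earlier results of these data known. Named were all members, THY1, CDH1, VIM, at most 4 called genes per list with the largest absolute log2 fold change, and the 3 genes most like each called member. Outside this rule, the uncalled TCF12, CTBP1, CTBP2, BTRC, CLDN1 and JUP, cell type markers and genes with promoter matches were also named, besides those marked as seen first. SIAH1, OVOL3 and TJP3 of the lists were not matched in the table. Some genes that this rule or the counts would name are not reported here. Gene positions are from GENCODE 29 (GRCh38) and promoter windows from RefSeq (GRCh38.p14).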

Additional observations from a re-analysis of the deposited data

How the results depend on the processing

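ZEB1 and ZEB2 kept their direction and call under every alternative, with log2 fold changes of -5.34 to -2.66 for ZEB1 over the offsets, filters, scalings, tools and left-out libraries. SNAI1 kept its direction throughout and lost its call only without the 3 libraries named above. SNAI2 changed sign to 0.020 without HuCCT1/CD90- replicate 2 and to 0.033 without HuCCT1/CD90+ replicate 2, within -0.21 to 0.033 over the left-out libraries and uncalled in each. With the replicate block, which takes the replicate number as a pair, the members called stayed at 3, the dimer partners and ID inhibitors went from 2 to 1 the protein stability regulators from 5 to 2 and the mesenchymal genes from 14 to 10; over all genes 2102 were called in place of 3138. An offset of 5 RPM gave 1 dimer partner and 2 stability regulators, and trend and robust settings gave 3 stability regulators. For other EMT-linked factors, the 2 calls became 6 with genes of at least 1 RPM, with edgeR and with DESeq2, 4 with quantile normalization or median centring, and 5 at unadjusted p-values; the cause was not tested. With each library left out, the counts ran from 2 to 3 for members, 1 to 2 for dimer partners, 1 to 3 for co-repressors (5 with all), 1 to 4 for stability regulators, 2 to 3 for other EMT-linked factors, 7 to 10 for opposing factors, 18 to 19 for epithelial genes and 9 to 13 for mesenchymal genes (14 with all). Over 12062 expressed genes (mean of 1 RPM or more) the median log2 fold change was -0.012 under quantile normalization and -0.035 under centring. At 3 reads per library, a level under 0.284 to 0.349 RPM was not detectable, which bears on 6 of the 10 members.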

Other observations

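MIR205HG, the host transcript of miR-205, a microRNA known to repress ZEB1 and ZEB2, was looked at after its values were seen. It is on chromosome 1 (GRCh38, bases 209428820 to 209432838) and had 14.1, 15.9 and 17.8 RPM in HuCCT1/CD90- and 113, 68.9 and 74.7 RPM in HuCCT1/CD90+ replicates 1, 2 and 3. The lines did not overlap and the mean was 5.37-fold higher in HuCCT1/CD90+ (log2 fold change 2.33, standard error 0.23, limma adjusted p = 0.0055), with an adjusted p of 0.051 under the replicate block and a median of -0.33 for its 50 neighbours. The mature microRNA was not measured.

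The genes whose RPM followed each called member most closely over the 6 libraries were named as a description, since the libraries form a group per line and 511 to 674 genes reached r over 0.95 with a member. For ZEB1 they included PDE7B, which went from a mean of 36.6 RPM to 0, and SELP, from 515 to 0.586 RPM. For SNAI1 they were HCFC1R1, PRKRA and BTN3A2, with means of 114, 121 and 69.4 RPM in HuCCT1/CD90- and 71.7, 70.0 and 29.2 RPM in HuCCT1/CD90+. For ZEB2 they were FSTL3, C1R and KLF9, of which C1R went from 54.2 to 1.70 RPM. The lowest r among the genes named was 0.998, with all points sharing the 6 libraries and their depth.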
